A study of Mus musculus with 12 samples.

Results

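The genes described here encode the extracellular matrix: collagen chains, laminin chains, matrix glycoproteins and proteoglycans, and a few enzymes that modify collagen. They were chosen as the rows of a bulk RNA-seq count table whose symbols have the form of a collagen chain (Col, a number, a, a number) or of a laminin chain (Lam, then a, b or c and a number), together with 33 named glycoproteins, proteoglycans and enzymes. This gave 72 genes of the 17718 in the table, of which 33 are collagen chains, 9 are laminin chains and 30 are other matrix genes. A further 16 symbols of the same form or list were not analysed here. The data are RNA-seq of cultured CT26 cells, a line from a mouse colon carcinoma, with 3 libraries of wild-type cells that received no treatment and 3 libraries of Mll3 knock-out cells. Mll3, now called Kmt2c, encodes a methyltransferase of histone H3 lysine 4. The series labels give knock-out as both genotype and treatment, name no other agent or allele for either group, and do not say whether the knock-out cells are 1 clone, several clones or a pool. Separate cultures are not stated for the libraries, and the p-values therefore reflect only how these libraries differ among themselves, which may be technical.

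Collagens are built from 3 chains wound into a triple helix. Fibrillar collagens bear tension in connective tissue, while collagen IV and the laminins, which are trimers of an alpha, a beta and a gamma chain, form the sheets of basement membranes under epithelia. Nidogen, perlecan and agrin link those sheets, and matricellular proteins such as thrombospondins and SPARC modulate how cells adhere to the matrix. In carcinomas most fibrillar collagen comes from fibroblasts of the stroma, but the cells measured here are a cultured line.

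Library totals ran from 9559658 to 13406013 counts, and 1 count was worth 0.0786 to 0.108 CPM (counts scaled to a common library size, corrected with TMM factors for differences in library composition). The targeted gene, Kmt2c, had 24.9, 26.2 and 25.0 CPM in wild-type and 16.0, 11.2 and 14.8 CPM in knock-out libraries. The log2 fold change was -0.87 (SE 0.129, edgeR adjusted p = 4.33e-08). Where the gene was edited is not visible in counts per gene. The label of the cells was checked against 15 epithelial markers. Krt18 and Krt20 were at 14.4 CPM or more in every library. Summed over the wild-type and the knock-out libraries, Krt7 had 36 and 295 counts, Krt8 had 4 and 78, and Vil1 had 10 and 7. The other 10, Epcam and Cdh1 among them, had no row in the table used here.

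Most matrix genes with enough counts were higher in the knock-out. Of the 72 genes, 31 rose, 8 fell, 13 did not pass the test and 20 had too few counts to be tested (edgeR quasi-likelihood test, adjusted p under 0.05 over all 13013 genes tested). The 39 calls are 75.0% of the 52 tested, beside 66.2% of all genes tested. The 31 rises are 59.6% of the 52, beside 33.1% of all genes, and the 8 falls are 15.4%, beside 33.2%. At least 2-fold changes were 16 rises (30.8%, beside 10.1% of all genes) and 1 fall (1.92%, beside 4.99%). The median log2 fold change, knock-out over wild-type, was 0.45 over the 52 genes and 0.02 over all genes tested. The filter kept 4 of the 52 through their knock-out libraries and 1 through its wild-type libraries, so these shares describe the genes that could be tested and not the whole group. The libraries of the genotypes did not overlap for 42 of the 52 (80.8%, beside 68.7% of all genes). The knock-out was above for 33 of the 52 and below for 9 of the 52. Over all 13013 genes tested it was above for 4471 (34.4%) and below for 4463 (34.3%).

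Summed over its 33 genes, collagen RNA went from 1860 ± 35.0 to 2630 ± 3.71 CPM (SD, n = 3 libraries per genotype), a ratio of 1.41. The sum of the 9 laminin genes was 882 ± 17.3 and 839 ± 11.6 CPM, a ratio of 0.951. The sum over all 72 genes went from 8012 ± 42.8 to 9357 ± 52.2 CPM, a ratio of 1.17. Fn1, Lgals1 and Col1a2 hold much of that sum, and without these 3 genes, chosen for their level, it went from 3262 ± 20.0 to 4838 ± 16.0 CPM, a ratio of 1.48. In bulk libraries a change in RNA per cell and a change in the share of cells that express a gene cannot be told apart.

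**Figure D1:**
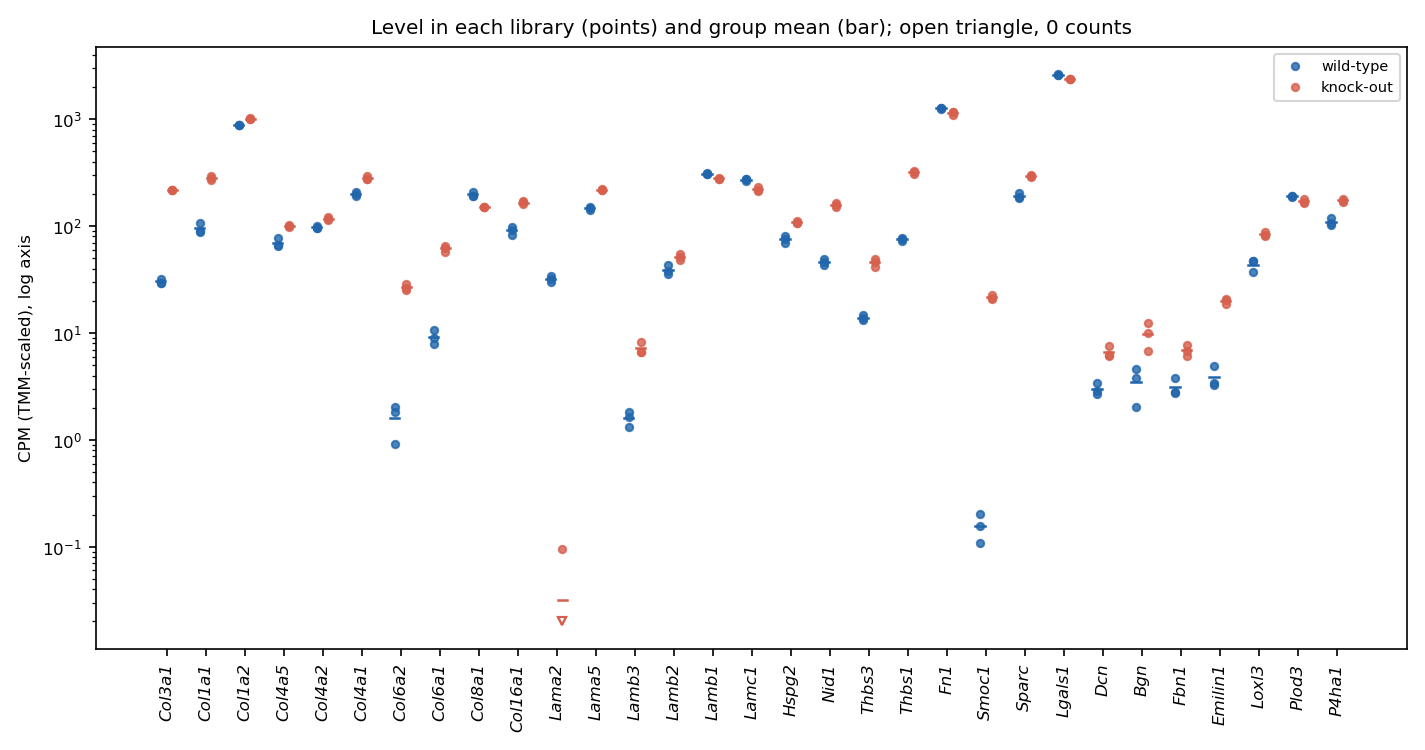
TMM-scaled CPM on a log axis for the 31 matrix genes described with all their values, one point per library, wild-type in blue and knock-out in red, with a bar at the mean of 3 libraries; open triangles mark libraries with 0 counts. Lama2 drops from about 32.1 CPM to 1 count in the knock-out and Smoc1 goes from 0.156 to 21.6 CPM, while Fn1, Lgals1, Lamb1 and Plod3 lie close together in both genotypes, and the small falls of the first 3 turn to values just above 0 with upper-quartile scaling.

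Among fibrillar collagens, 4 of 7 tested chains rose (57.1%, beside 33.1% of all genes) and none fell (beside 33.2%). Col3a1, the single chain of collagen III (ENSMUSG00000026043, chromosome 1, 45311538 to 45349706, GRCm38.p6), had 32.1, 29.3 and 29.7 CPM in the wild-type libraries and 217, 219 and 216 CPM in the knock-out libraries. All knock-out libraries lay far above all wild-type libraries, a 7.13-fold rise (log2 fold change 2.83, SE 0.0594, edgeR adjusted p = 4.58e-43). Collagen I is made of Col1a1 and Col1a2 chains, and these moved by different amounts. Col1a1 (chromosome 11) had 89.7, 88.3 and 107 CPM in wild-type and 293, 273 and 283 CPM in knock-out libraries, a log2 fold change of 1.58 (SE 0.0524, edgeR adjusted p = 6.01e-31). Col1a2 (chromosome 6, 4505618 to 4541543) had 887, 874 and 879 CPM in wild-type and 1008, 998 and 1021 CPM in knock-out libraries, a log2 fold change of 0.20 (SE 0.0322, edgeR adjusted p = 3.49e-07). The groups of Col1a2 did not overlap, but the step was 1.15-fold. Col5a3, a minor chain of collagen V, rose from 0.474 ± 0.293 to 2.07 ± 1.06 CPM (log2 fold change 2.05, SE 0.510), and without wild-type replicate 1 the value was 2.68. This gene passed the filter on low counts through its knock-out libraries only. Col5a1, the main chain of collagen V, stood at 118 ± 4.34 and 122 ± 4.73 CPM (log2 fold change 0.05, SE 0.0530, edgeR adjusted p = 0.445). Col5a2, which lies 24.6 kb from Col3a1, had 1.10 ± 0.351 and 1.33 ± 1.05 CPM, and 1 knock-out library was above the wild-type range while the other 2 were below or within it. Col11a2 had a log2 fold change of 0.30 (edgeR adjusted p = 0.213), and Col2a1 and Col24a1 had too few counts to test.

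The promoter windows of Col3a1 and Col1a2 are shown because the genes differ in the size of their rise. Each window is 250 bases before to 50 bases after a start that RefSeq annotates for the gene on GRCm38.p6, which for 24 of the 59 windows found is the end of the gene's span and for the others lies inside it, written 5′ to 3′ on the strand of the gene, with every CCAAT box (CCAAT or ATTGG) and TATAAA element (TATAAA or TTTATA) in capitals. The Col3a1 window is chr1:45311288-45311587 on the plus strand and the Col1a2 window is chr6:4505368-4505667 on the plus strand.
Col3a1: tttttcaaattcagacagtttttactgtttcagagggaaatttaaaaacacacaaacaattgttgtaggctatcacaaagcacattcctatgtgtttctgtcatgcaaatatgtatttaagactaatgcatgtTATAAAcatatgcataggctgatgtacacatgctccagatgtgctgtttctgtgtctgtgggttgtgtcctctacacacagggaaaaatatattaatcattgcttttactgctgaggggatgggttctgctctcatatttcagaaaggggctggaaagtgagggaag
Col1a2: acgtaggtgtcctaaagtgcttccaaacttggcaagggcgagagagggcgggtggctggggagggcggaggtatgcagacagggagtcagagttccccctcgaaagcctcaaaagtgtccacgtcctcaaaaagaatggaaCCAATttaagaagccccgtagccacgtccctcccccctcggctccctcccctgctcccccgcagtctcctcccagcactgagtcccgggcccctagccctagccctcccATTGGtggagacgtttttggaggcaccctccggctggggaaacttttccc
The Col3a1 window holds 1 TATAAA, 117 bases before the start, and no CCAAT, with 37.7% G and C and 0 CpG. The Col1a2 window holds 2 CCAAT matches and no TATAAA, with 61.0% G and C and 13 CpG. A match is a description of the letters and not a site.

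The tested basement membrane collagens rose by less than Col3a1 and Col1a1, and by more than Col1a2. Of the 6 collagen IV chains, 3 were tested and all 3 rose (100%, beside 33.1% of all genes). Col4a1 and Col4a2 (chromosome 8), whose starts lie head to head and whose spans overlap there, form the common collagen IV trimer. Col4a1 had 198, 191 and 210 CPM in wild-type and 276, 297 and 276 CPM in knock-out libraries, a log2 fold change of 0.50 (SE 0.0438, edgeR adjusted p = 2.96e-15). Col4a2 had 97.0, 101 and 96.8 CPM in wild-type and 121, 113 and 118 CPM in knock-out libraries, a log2 fold change of 0.25 (SE 0.0547, edgeR adjusted p = 5.78e-05). Neither gene's groups overlapped. Chromosome 8 as a whole was lower in the knock-out, with a median log2 fold change of -0.35 over 662 tested genes, and relative to that median Col4a1 was at 0.86 and Col4a2 at 0.61. Col4a5, on the X chromosome, had 76.8, 66.3 and 64.8 CPM in wild-type and 102, 98.5 and 99.4 CPM in knock-out libraries (log2 fold change 0.52, SE 0.0634, edgeR adjusted p = 2.29e-10), with no overlap. Its neighbour Col4a6, 1.27 kb away, had 3 counts in the wild-type and 25 in the knock-out. Col4a3 and Col4a4, which form the kidney and lung network, had 25 and 25 counts in the wild-type and 9 and 18 in the knock-out, too few to test. The window before Col4a2 (chr8:11312555-11312854, plus strand) is shown because its last 78 bases are shared with the window of Col4a1 on the opposite strand.
Col4a2: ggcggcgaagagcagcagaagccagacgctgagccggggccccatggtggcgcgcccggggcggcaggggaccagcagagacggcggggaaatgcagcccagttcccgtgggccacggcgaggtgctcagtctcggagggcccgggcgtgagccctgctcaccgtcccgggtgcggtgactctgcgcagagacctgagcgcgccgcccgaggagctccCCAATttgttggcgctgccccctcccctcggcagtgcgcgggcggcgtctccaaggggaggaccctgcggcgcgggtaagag
It holds 1 CCAAT, 32 bases before the Col4a2 start, and 33 CpG.

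Collagen VI forms beaded filaments around cells. Col6a2 (chromosome 10, 76595756 to 76623630), which passed the filter on low counts through its knock-out libraries only, had 1.81, 0.918 and 2.05 CPM in wild-type and 28.9, 26.3 and 25.3 CPM in knock-out libraries, a log2 fold change of 4.06 (SE 0.197, edgeR adjusted p = 9.16e-26). Col6a1, 85.2 kb away, had 8.96, 10.7 and 7.87 CPM in wild-type and 62.7, 65.2 and 57.6 CPM in knock-out libraries, a log2 fold change of 2.75 (SE 0.108, edgeR adjusted p = 5.06e-30). For both genes every knock-out library was above every wild-type library by a wide margin. The tested genes around them, up to 20 in number, had a median of 0.67, and with chromosome medians removed the values were 3.70 and 2.39. Col6a3, the chain that completes the usual collagen VI trimer, had 3 counts in the wild-type and 28 in the knock-out, below the filter. Col7a1, which makes the anchoring fibrils of epithelial basement membranes, rose from 12.1 ± 0.957 to 25.4 ± 2.91 CPM (log2 fold change 1.06, SE 0.130). The windows of the collagen VI genes (Col6a1, chr10:76725995-76726294, and, of 2 for Col6a2, the one at the end of the gene's span, chr10:76623581-76623880, both minus strand) are shown because these neighbours rose together.
Col6a1: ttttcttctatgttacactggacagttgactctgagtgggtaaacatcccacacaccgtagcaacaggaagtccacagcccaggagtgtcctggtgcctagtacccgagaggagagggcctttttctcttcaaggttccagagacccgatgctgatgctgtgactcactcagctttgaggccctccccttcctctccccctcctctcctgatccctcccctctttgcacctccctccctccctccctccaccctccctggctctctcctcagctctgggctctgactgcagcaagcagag
Col6a2: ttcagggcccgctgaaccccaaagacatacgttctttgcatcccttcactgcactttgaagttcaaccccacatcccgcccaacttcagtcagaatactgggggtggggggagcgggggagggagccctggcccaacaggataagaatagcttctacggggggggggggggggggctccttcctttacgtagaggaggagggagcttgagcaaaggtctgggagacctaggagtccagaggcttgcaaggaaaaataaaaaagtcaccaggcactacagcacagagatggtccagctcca
Neither holds a CCAAT or a TATAAA. The Col6a1 window holds 1 match to the AP-1 sequence TGANTCA, found in 7.81% of all 32817 promoter windows.

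Other collagens split. Col16a1, a fibril-associated collagen, rose from 91.5, 82.8 and 99.1 to 162, 170 and 167 CPM (log2 fold change 0.87, SE 0.0547, edgeR adjusted p = 8.93e-21). Col8a1, a short-chain collagen that forms hexagonal networks, was the only collagen called lower, with 209, 193 and 192 CPM in wild-type and 153, 152 and 152 CPM in knock-out libraries (log2 fold change -0.38, SE 0.0465, edgeR adjusted p = 2.37e-10). Col10a1, of the same class, had 3.56 ± 0.810 and 2.19 ± 1.12 CPM (edgeR adjusted p = 0.0617), and with chromosome medians removed it was called lower at -1.05 (edgeR adjusted p = 0.00491). Its groups overlapped. Col18a1, which yields endostatin, had 36.1 ± 1.02 and 40.7 ± 4.40 CPM (log2 fold change 0.17, edgeR adjusted p = 0.0872), a value of -0.19 with chromosome medians removed. Col9a3, Col14a1 and Col20a1 had group means of 1.16 to 3.38 CPM and did not pass the test. Collagens below the filter include Col15a1 with 1 and 30 counts and Col17a1, a hemidesmosome collagen, with 3 and 27 counts in the wild-type and knock-out.

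**Figure D2:**
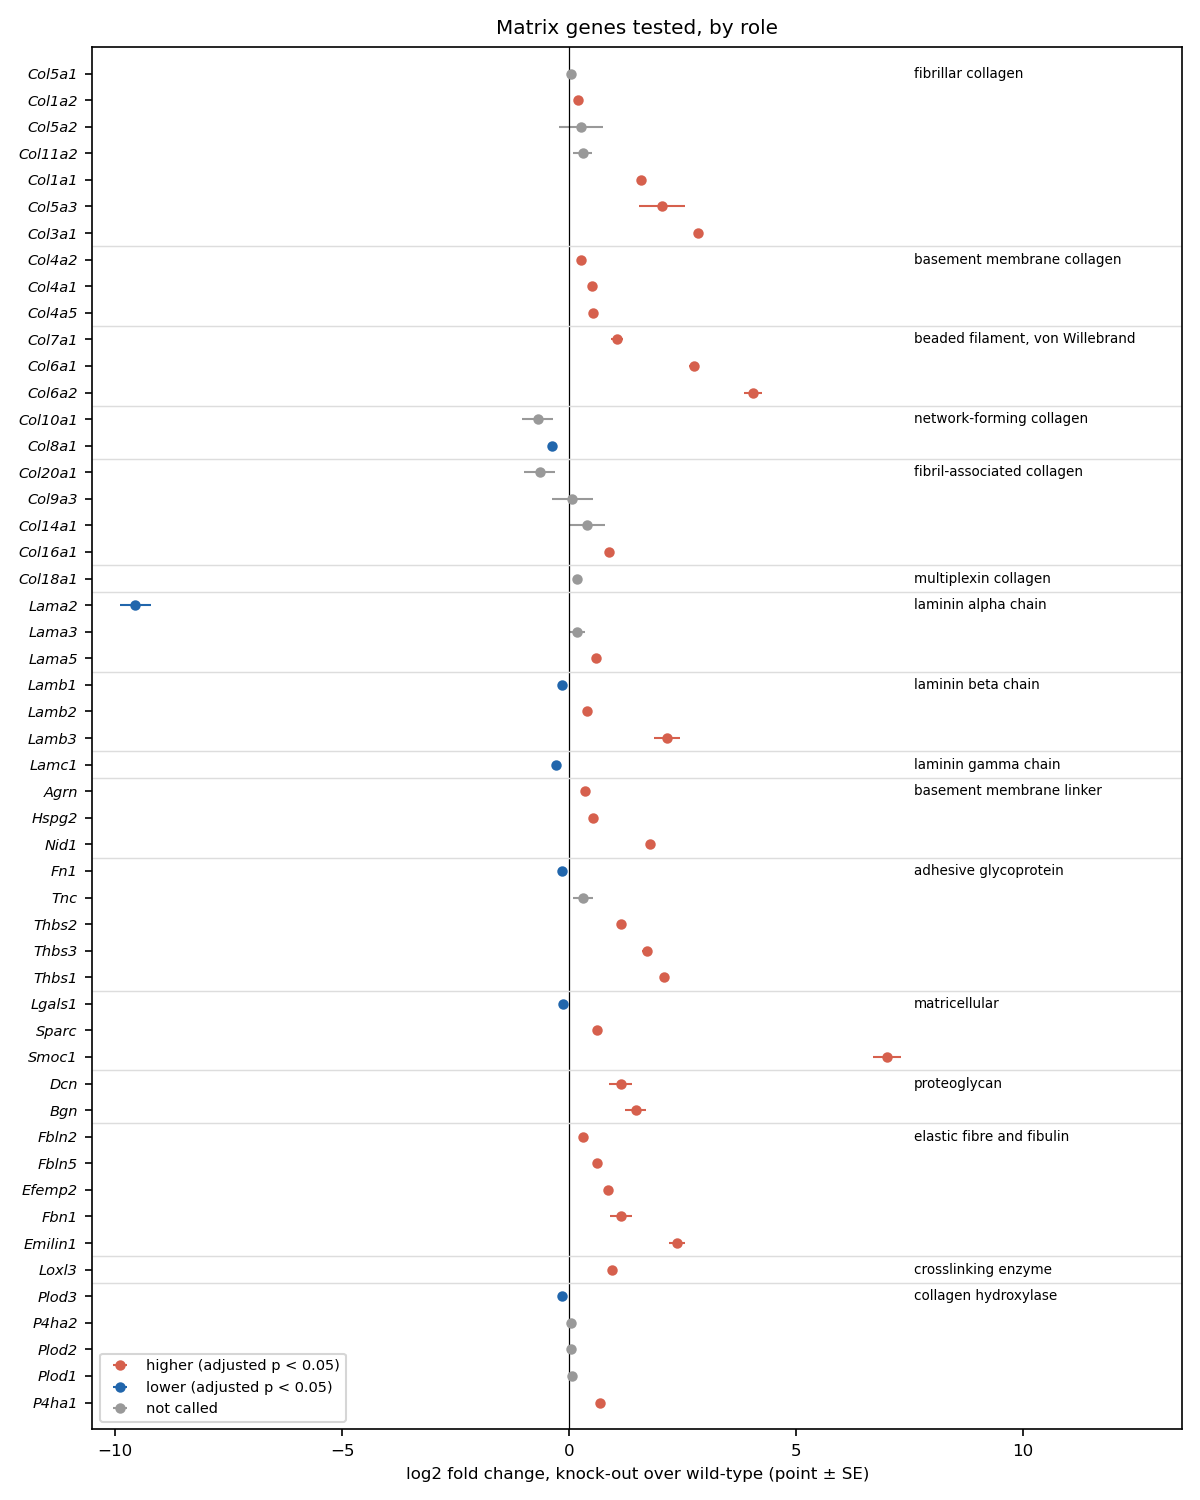
Log2 fold change, knock-out over wild-type, with its SE from 3 libraries per genotype, for 51 of the 52 matrix genes tested, grouped by role; red is higher, blue lower and grey not called at an adjusted p of 0.05. All tested genes of collagen IV, of the collagen VI and VII group, of basement membrane linkers, of proteoglycans and of elastic fibres lie to the right of 0, and Lama2 is alone at -9.55; the points of Fn1, Lamb1 and Lgals1 move to just above 0 with upper-quartile scaling.

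Laminin chains moved in both directions, with 3 of 8 tested higher (37.5%, beside 33.1% of all genes) and 4 lower (50.0%, beside 33.2%). Lama2, the alpha chain of muscle and nerve laminin (ENSMUSG00000019899, chromosome 10, 26981285 to 27617191), had 432, 314 and 281 counts in the wild-type libraries and 0, 0 and 1 count in the knock-out libraries. The wild-type level was 33.9, 32.0 and 30.3 CPM, and the ratio of the summed counts, scaled for library size, was 1039 (exact binomial 95% interval 186 to 41086, counting error only). The fitted log2 fold change was -9.55 (SE 0.340, edgeR adjusted p = 5.10e-32). It was -11.43 without the knock-out library that held the single count, and the gene passed the filter through its wild-type libraries only. The tested genes around Lama2 had a median of 0.53, so the gene moved against its neighbours. The window of the start in the promoter table (chr10:27616893-27617192, minus strand), which lies 249 bases inside the end of the gene's span, is shown because Lama2 was the largest fall of the group.
Lama2: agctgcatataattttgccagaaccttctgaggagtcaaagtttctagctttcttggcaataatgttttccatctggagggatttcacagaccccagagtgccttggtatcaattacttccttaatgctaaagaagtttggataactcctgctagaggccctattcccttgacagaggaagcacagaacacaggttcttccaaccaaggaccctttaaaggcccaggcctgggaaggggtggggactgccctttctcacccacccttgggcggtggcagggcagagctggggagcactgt
It holds no CCAAT or TATAAA, 1 CpG, and 1 GC box (GGGCGG).

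Lama5, the broadly used epithelial alpha chain, had 141, 151 and 148 CPM in wild-type and 219, 222 and 216 CPM in knock-out libraries (log2 fold change 0.58, SE 0.0455, edgeR adjusted p = 5.87e-17). Lama3, the alpha chain of hemidesmosome laminin, had 7.47 ± 0.219 and 8.42 ± 0.281 CPM (log2 fold change 0.17, SE 0.186, edgeR adjusted p = 0.418). Chromosome 18, where it lies, had a median of -0.31, and once chromosome medians were taken off Lama3 was called higher at 0.49 (edgeR adjusted p = 0.0194). Among beta chains, Lamb3, the partner of Lama3, rose from 1.65, 1.33 and 1.83 to 6.66, 6.66 and 8.17 CPM (log2 fold change 2.15, SE 0.283, edgeR adjusted p = 1.89e-09). Lamb2 rose from 37.9, 43.6 and 35.7 to 54.5, 51.4 and 48.3 CPM (log2 fold change 0.40, SE 0.0841, edgeR adjusted p = 4.48e-05). Lamb1, the common beta chain, had 307, 313 and 309 CPM in wild-type and 277, 279 and 282 CPM in knock-out libraries (log2 fold change -0.15, SE 0.0394, edgeR adjusted p = 0.000800), a fall that ended with library size alone (-0.03) and was 0.008 with upper-quartile scaling. Lamc1, the common gamma chain, had 274, 277 and 266 CPM in wild-type and 215, 231 and 217 CPM in knock-out libraries (log2 fold change -0.30, SE 0.0422, edgeR adjusted p = 1.16e-08). Tested genes around Lamc1 on chromosome 1 had a median of -0.18, and with chromosome medians removed Lamc1 was at -0.10.

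All 3 tested linkers of the basement membrane rose (100%, beside 33.1% of all genes). Nid1, nidogen, which joins laminin to collagen IV, had 45.7, 42.8 and 49.5 CPM in wild-type and 158, 164 and 152 CPM in knock-out libraries (log2 fold change 1.78, SE 0.0609, edgeR adjusted p = 8.06e-33). Hspg2, perlecan, had 69.4, 75.5 and 81.2 CPM in wild-type and 107, 111 and 107 CPM in knock-out libraries (log2 fold change 0.53, SE 0.0605, edgeR adjusted p = 2.53e-11). Agrn, agrin, had a log2 fold change of 0.35 (SE 0.0820), and Nid2 had 12 and 10 counts. The genes around Nid1 on chromosome 13 had a median of -0.34.

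Among adhesive glycoproteins the thrombospondins rose, and fibronectin and tenascin C did not. Thbs1, an inhibitor of angiogenesis and an activator of latent TGF-beta, had 72.4, 75.0 and 77.8 CPM in wild-type and 308, 318 and 328 CPM in knock-out libraries (log2 fold change 2.09, SE 0.0480, edgeR adjusted p = 4.17e-41). Thbs3 rose from 13.8, 13.3 and 14.8 to 41.2, 49.3 and 46.5 CPM (log2 fold change 1.72, SE 0.106, edgeR adjusted p = 4.80e-21). Thbs2, also an inhibitor of angiogenesis, rose from 157 ± 3.79 to 344 ± 8.49 CPM. The promoter window of Thbs2 (chr17:14694213-14694512, minus strand) is shown because, of the windows printed here, it alone holds both elements.
Thbs2: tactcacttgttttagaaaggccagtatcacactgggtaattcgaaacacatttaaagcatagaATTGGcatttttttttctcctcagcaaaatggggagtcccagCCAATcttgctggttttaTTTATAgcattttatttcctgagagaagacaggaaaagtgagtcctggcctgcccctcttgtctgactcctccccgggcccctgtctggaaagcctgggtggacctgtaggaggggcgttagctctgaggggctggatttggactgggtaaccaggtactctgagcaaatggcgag
It has 2 CCAAT matches and 1 TATAAA match. Fn1, fibronectin, had 1270.3, 1277 and 1255 CPM in wild-type and 1102, 1173 and 1157 CPM in knock-out libraries. Its log2 fold change was -0.15 (SE 0.0320, edgeR adjusted p = 6.08e-05), but 0.009 with upper-quartile scaling, -0.03 with library size alone and 0.05 with chromosome medians removed, and none of these 3 was called. Tested genes around Fn1 had a median of 0.09, where chromosome 1 as a whole had -0.20. Tnc, tenascin C, had 5.57 ± 1.04 and 6.96 ± 0.466 CPM (log2 fold change 0.31, SE 0.212, edgeR adjusted p = 0.203).

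Smoc1, a secreted protein of the SPARC family that binds calcium, had 2, 2 and 1 counts in the wild-type libraries and 219, 263 and 216 counts in the knock-out libraries. The ratio of summed counts, scaled for library size, was 138 (exact binomial 95% interval 58.8 to 426, counting error only), and the fitted log2 fold change was 7.0 (SE 0.305, edgeR adjusted p = 6.81e-28). The gene passed the filter through its knock-out libraries. Sparc itself, which binds collagen, had 203, 184 and 189 CPM in wild-type and 292, 303 and 288 CPM in knock-out libraries (log2 fold change 0.62, SE 0.0434, edgeR adjusted p = 8.82e-19). Lgals1, galectin 1, had 2630.2, 2611 and 2568 CPM in wild-type and 2363, 2361 and 2375 CPM in knock-out libraries (log2 fold change -0.14, SE 0.0291, edgeR adjusted p = 4.19e-05), a value of 0.02 with upper-quartile scaling and of -0.02 with library size alone, neither called.

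Both small leucine-rich proteoglycans of the group, Bgn and Dcn, rose from low levels, where 33.1% of all genes rose. Bgn, biglycan, had 3.77, 4.59 and 2.05 CPM in wild-type and 10.1, 6.83 and 12.3 CPM in knock-out libraries (log2 fold change 1.47, SE 0.238, edgeR adjusted p = 4.10e-07). Dcn, decorin, which binds collagen fibrils, had 3.38, 2.86 and 2.70 CPM in wild-type and 6.07, 6.23 and 7.50 CPM in knock-out libraries (log2 fold change 1.13, SE 0.251, edgeR adjusted p = 8.73e-05). The groups of neither gene overlapped. Vcan, versican, had 12 and 40 counts in the wild-type and knock-out and was not tested.

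All 5 tested genes of elastic fibres and fibulins rose (100%, beside 33.1% of all genes). Emilin1, an elastin interface protein, had 3.38, 3.26 and 4.96 CPM in wild-type and 18.5, 20.7 and 20.3 CPM in knock-out libraries (log2 fold change 2.37, SE 0.178, edgeR adjusted p = 1.17e-17). Fbn1, fibrillin 1, the backbone of microfibrils, rose from 2.83, 2.75 and 3.77 to 6.75, 6.05 and 7.78 CPM (log2 fold change 1.14, SE 0.249, edgeR adjusted p = 6.51e-05). Efemp2 (fibulin 4), Fbln5 and Fbln2 had log2 fold changes of 0.85, 0.62 and 0.30 (SE 0.0605, 0.0681 and 0.0474). Efemp1 had 5 and 37 counts.

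Of the 6 tested enzymes that modify collagen, 2 rose (33.3%, beside 33.1% of all genes) and 1 fell (16.7%, beside 33.2%). Loxl3, a lysyl oxidase that crosslinks collagen and elastin, rose from 46.7, 37.0 and 46.7 to 82.7, 81.2 and 87.9 CPM (log2 fold change 0.95, SE 0.0750, edgeR adjusted p = 1.01e-16), while Loxl1 and Loxl2 had too few counts to test. Its span overlaps that of Htra2, so reads of the pair may not be told apart. P4ha1, a prolyl hydroxylase subunit, rose from 106, 119 and 102 to 169, 173 and 179.5 CPM (log2 fold change 0.68, SE 0.0523, edgeR adjusted p = 3.95e-17). Chromosome 10, where it lies, had a median of 0.36, and once chromosome medians were taken off P4ha1 was at 0.32. The tested genes nearest to P4ha1 had a lower median, 0.13. P4ha2 and the lysyl hydroxylases Plod1 and Plod2 had log2 fold changes of 0.04, 0.05 and 0.05 with SE of 0.0831, 0.0675 and 0.0654. Plod3, which also glycosylates collagen and overlaps Znhit1, fell by 0.16 on the log2 scale (SE 0.0462, edgeR adjusted p = 0.00194), from 192, 193 and 188 to 181, 163 and 168 CPM, and the call was lost under upper-quartile scaling (-0.003) and when scaled by library size alone (-0.04).

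Ratios between genes within a library do not depend on how libraries are scaled. They show change between genotypes only, since counts were not divided by transcript length. Col1a1 counts per Col1a2 count were 0.101, 0.101 and 0.122 in wild-type and 0.290, 0.273 and 0.277 in knock-out libraries, a 2.60-fold change. Col3a1 per Col1a2 went from 0.0345 ± 0.00152 to 0.215 ± 0.00394, a 6.25-fold change. Thbs1 per Thbs2 went from 0.480 ± 0.0279 to 0.926 ± 0.0518, and Lama5 per Lamb1 from 0.472 ± 0.0127 to 0.784 ± 0.0175. Smaller shifts were seen for Col4a1 per Col4a2 (from 2.03 ± 0.137 to 2.42 ± 0.183) and Lamb1 per Lamc1 (from 1.14 ± 0.0207 to 1.26 ± 0.0507). The 9 pairs reported were picked after their values were seen, so they are a description. An exact permutation test gave p = 0.1 for each pair. That is the smallest value that 3 against 3 libraries allow, so the test cannot decide.

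**Figure D3:**
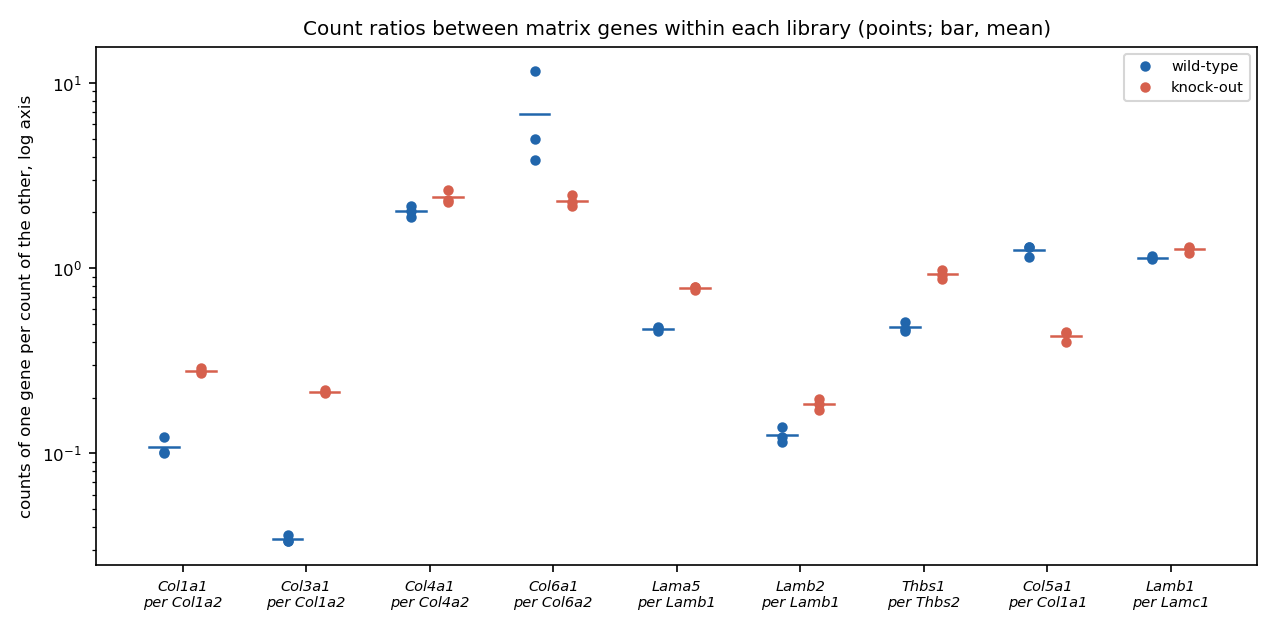
Counts of one matrix gene per count of another within each library, on a log axis, for 9 pairs, with 3 wild-type libraries in blue and 3 knock-out libraries in red and a bar at each mean. Col1a1 and Col3a1 rise against Col1a2, with ratios from 0.108 to 0.280 and from 0.0345 to 0.215, and Col6a1 per Col6a2 spreads widely in the wild-type, where Col6a2 had 9 to 23 counts.

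Whole chromosomes differed between the genotypes, so each matrix gene was set beside its neighbours. Medians of log2 fold change by chromosome ran from -0.35 on chromosome 8 to 0.36 on chromosome 10. With the median of its chromosome removed from each gene, 32 matrix genes were higher (61.5%, beside 32.0% of all genes) and 8 lower (15.4%, beside 32.7%). The rises of Col3a1 and Nid1 lay among neighbours with medians of -0.29 and -0.34, and those of Col6a1 and Col6a2 among neighbours with a median of 0.67.

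**Figure D4:**
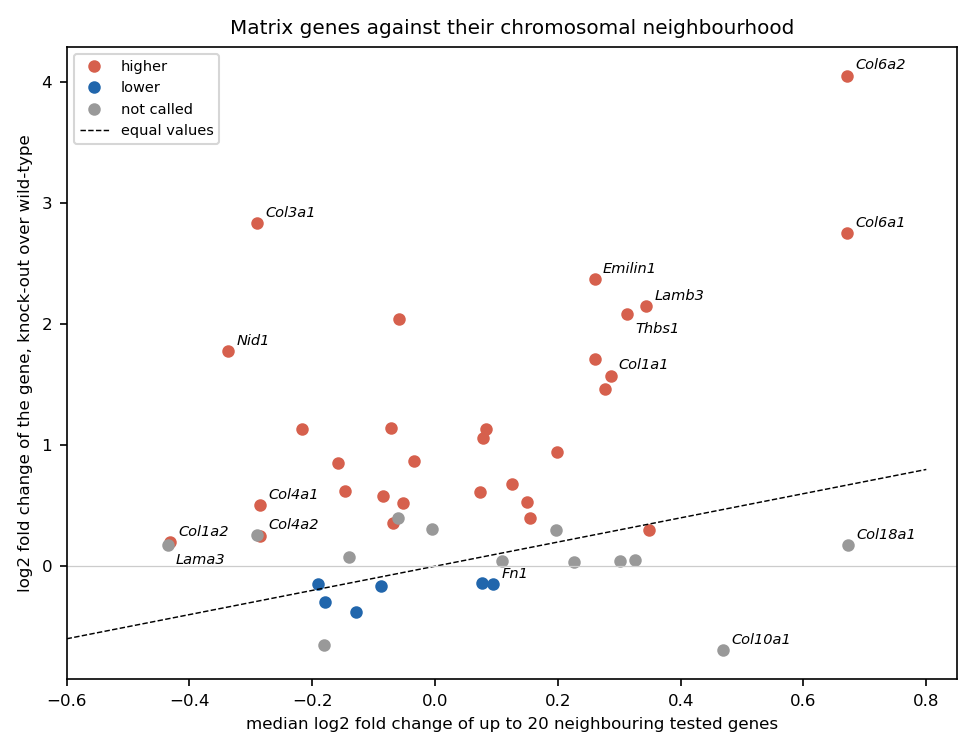
Log2 fold change of 49 tested matrix genes (Lama2 and Smoc1 are left out for scale) against the median log2 fold change of up to 20 tested neighbours on the chromosome; the dashed line marks equal values. Col3a1 and Nid1 lie far above the line among falling neighbours, Col6a1 and Col6a2 lie above it among rising ones, and Col18a1 and Col10a1 lie below it; Fn1, at -0.15, moves to 0.009 with upper-quartile scaling.

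Promoter windows were found for 50 of the 72 genes, 59 windows in all. GGGCGG, the GC box, was in 40 of the 59 windows (67.8%, beside 35.6% of all 32817 windows), and these windows had a median G and C content of 60.3%, beside 52.7%. CCAAT was in 17 (28.8%, beside 37.4%) and TATAAA in 9 (15.3%, beside 13.6%). The AP-1 sequence TGANTCA was in 2 (3.39%, beside 7.81%), the SMAD-type sequence CAGACA in 17 (28.8%, beside 21.0%) and the TEAD-type sequence GGAATG in 7 (11.9%, beside 14.7%). Matches were counted on both strands, and those of different motifs may overlap. Some genes have several windows that share bases, so a match can be counted more than once. The TATAAA of Tnc, for example, is counted in 2 windows.

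Of 30 genes listed for folding, processing and secreting collagen, 20 were tested. Of these, 11 rose (55.0%, beside 33.1% of all genes) and 5 fell (25.0%, beside 33.2%), with a median log2 fold change of 0.22. Bmp1, the procollagen C-proteinase, rose by 1.30 (SE 0.0721, edgeR adjusted p = 3.28e-23), and Pcolce, its enhancer, rose from 413 to 644 CPM (log2 fold change 0.64, SE 0.0380). Sec24d, a coat protein of the vesicles that carry procollagen, fell by 1.02 on the log2 scale, from 129.9, 130.3 and 126 to 59.2, 63.6 and 67.3 CPM (SE 0.0592, edgeR adjusted p = 2.50e-22). Medians over up to 20 tested genes at each place, the named gene included, were 0.46 for Bmp1, 0.59 for Pcolce and -0.81 for Sec24d. Of 48 other matrix glycoproteins and proteoglycans, 21 were tested, 12 rose (57.1%) and 3 fell (14.3%), and 6 of the 21 passed the filter through the knock-out only. Ogn, osteoglycin, rose by 1.67 (SE 0.0564) and Emilin2 by 2.04 (SE 0.151), while Spp1, osteopontin, fell by 0.43 on the log2 scale (SE 0.0323). Of 18 collagen and laminin receptors, 12 were tested, 6 rose (50.0%) and 5 fell (41.7%), where 33.1% of all genes rose and 33.2% fell. The integrin chains went in different directions, Itgb1 falling by 0.71 (SE 0.0349) from 1076 to 657 CPM and Itga3, a laminin receptor chain, rising by 1.11 (SE 0.0591), and Ddr2, a collagen receptor kinase, fell by 0.77 on the log2 scale (SE 0.0388).

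Fibroblasts are a usual source of these RNAs, so markers of other cells were read in the same libraries. Of 14 fibroblast and pericyte markers, 5 were tested and 3 were called higher (60.0%, beside 33.1% of all genes), with none called lower. Of the 3, Acta2 and Des passed the filter through the knock-out only. The lowest log2 fold change of the 5 was -0.59, in a marker that was not called. Acta2 went from 0.141 to 4.27 CPM, Des from 0.708 to 5.46 CPM and Pdgfra from 4.65 to 9.57 CPM, while Pdgfrb, which holds most of the list's sum, was at 35.3 and 37.8 CPM and was not called. The list summed to 40.8 to 49.3 CPM in wild-type and 52.6 to 67.5 CPM in knock-out libraries. The fibroblast markers Dpt and Fap had 3 and 20 counts in all wild-type libraries and 3 and 11 in all knock-out libraries, and Lum and Thy1 had no row in the table used here. The 8 endothelial markers summed to 1.18 to 3.02 and 3.13 to 4.50 CPM, with Pecam1 higher (log2 fold change 2.08, SE 0.499, passing the filter through the knock-out only) and Kdr at 6 and 6 counts. Of 10 immune markers, Ptprc had 3 and 9 counts and Lyz2, also past the filter through the knock-out only, rose from 0.553 to 8.80 CPM, Csf1r fell by 1.19 on the log2 scale, and the list summed to 18.7 to 23.0 CPM in wild-type and 18.8 to 23.5 CPM in knock-out libraries. The 15 epithelial markers summed to 54.4 to 56.7 CPM in wild-type and 170.5 to 182 CPM in knock-out libraries, and the 4 tested were called higher, of which Krt7 and Krt8 passed the filter through the knock-out only. The part of these markers in the changes of matrix genes was not tested.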

How the data were processed

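RNA-seq of cultured CT26 cells was used, 3 libraries per genotype; the series' other assays were not analysed here. The authors deposited 1 table of raw counts, with Ensembl identifiers in rows. Per the labels' protocols, libraries were strand-specific and from polyA RNA, and all 6 carry the same batch label. The submitters' processing notes name STAR, HTSeq, fastp and build mm10. Which annotation was counted, and whether by strand, is not given in the sources used here, so overlapping genes are uncertain. Every gene deposited is above 0 in at least 3 libraries. Knock-out columns carry a short form usual for single guide RNA with a number whose meaning the labels do not give, so they were assigned to the group only.

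Symbols were matched for 17650 identifiers; positions come from RefSeq on GRCm38.p6, by symbol. Genes were filtered with filterByExpr (minimum count 10, minimum total 15), leaving 13013, scaled with TMM, and tested with edgeR 4.0.16 (quasi-likelihood F test, robust, Benjamini-Hochberg over all genes, R 4.3.3). SE come from the F statistic. The biological coefficient of variation was 5.03%. Values are given in every library for the 31 genes that are, within their role, the largest called rises and fall (at most 2 and 1, average log2 CPM of at least 1, groups without overlap), that had a call and 3 counts or fewer in a genotype, or that were preset (Fn1, Col1a1, Col1a2, Col4a1, Col4a2, Lamb1, Lamc1, Lama5, Sparc); of each other list, the 3 genes with the smallest p are named. One gene of the group is counted but not reported here. Other genes named were chosen after their values were seen. The members and lists were chosen with earlier results of these data known. Alternatives included other scalings, filters, DESeq2 1.42.0 and limma 3.58.1 (voom). Promoter sequences are RefSeq's (GRCm38.p6).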

Additional observations from a re-analysis of the deposited data

How the results depend on the processing

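All 31 rises kept their direction and call in every alternative in which the gene was tested, except glmTreat, which tests against a 1.5-fold change and left 19 matrix genes higher and 1 lower (over all genes, 1448 higher and 1154 lower). Of the 8 falls, 4 did so, Lama2, Lamc1 and Col8a1 among them. Under upper-quartile scaling 4 matrix genes were lower, and 4 when scaled by library size alone. These scalings moved the median of all genes from 0.02 to 0.17 and 0.14, and the median of the matrix genes from 0.45 to 0.61 and 0.57; it was 0.51 with no filter, 0.56 with the stricter filter (a mean count of 50 and a mean of 1 CPM) and 0.50 without the 50 most abundant genes. Upper-quartile scaling turned the log2 fold changes of Fn1, Lamb1 and Lgals1 to 0.0093, 0.0078 and 0.019, none called. Chromosome medians removed turned Fn1, Col18a1 and P4ha2 to 0.052, -0.19 and -0.020, none called, and the cause of these turns was not tested. Leaving out 1 library in turn, the uncalled Col9a3 ranged from -0.17 to 0.32 (-0.12 without wild-type replicate 2) and the uncalled Col5a2 from -0.60 to 0.55. Over these 6 fits 31 to 36 matrix genes were higher and 8 to 9 lower, with a median of 0.48 to 0.55. Over all genes, 3902 to 4295 were higher and 4083 to 4422 lower. Each fit was filtered anew and tested 13180 to 13365 genes, so its matrix genes need not be the same 52. Of 20 matrix genes below the filter, 6 were higher with no filter (Col15a1, Col17a1, Col4a6, Col6a3, Efemp1 and Vcan). These 6 had 1 to 12 counts over the wild-type libraries and 25 to 40 over the knock-out libraries. In that fit the median of all 17718 genes was 0.05. The share of all genes called in it is not given here, so the 6 cannot be weighed against it. No paired analysis was possible because the knock-out columns carry no replicate number of the labels.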
